A study of Mus musculus with 36 samples.

Results

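Glutamate and GABA are cleared from the space around synapses by transporters on glia, and glutamine synthetase, encoded by Glul, turns the recovered glutamate into glutamine. In the brain this clearance is a textbook task of astrocytes, and the transporters GLAST (Slc1a3) and GLT1 (Slc1a2) are among their best known genes. Metabotropic GABA-B receptors, dimers of the products of Gabbr1 and Gabbr2, couple to inhibitory G proteins and are also found on Schwann cells. The neuromuscular junction of mice is cholinergic, and the perisynaptic Schwann cells (PSCs) that cover it are the glia of that synapse.

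The 9 genes of this system described here are 3 glutamate transporters (Slc1a1, Slc1a2, Slc1a3), glutamine synthetase (Glul), 2 GABA transporters (Slc6a11, Slc6a13), both GABA-B receptor subunits (Gabbr1, Gabbr2) and Gad1, which encodes a glutamate decarboxylase that makes GABA. They were taken by symbol from the 52636 genes of the count table, and all 9 were found. Earlier results of these data were known when the 9 genes were chosen. Enough counts for a test, among 15330 genes in all, were present for 7 of them, and Gabbr2 and Gad1 fell below that filter. Slc6a11 and Slc6a13 passed through their NG2-dsRed+ libraries, since all 10 of those had at least 10 counts of each gene. Outside them, 3 libraries reached 10 counts of Slc6a11 and 4 reached 10 counts of Slc6a13.

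Cells were sorted by fluorescence from dissociated diaphragm, pectoralis and limb muscles of juvenile mice that carry 2 transgenes, S100β-GFP and NG2-dsRed, in which promoters of S100b and of Cspg4 (the NG2 gene) drive the reporters. All 3 groups come from this genotype without treatment: double-positive S100β-GFP+;NG2-dsRed+ cells (PSCs, n = 9 libraries), S100β-GFP+ cells (n = 8) and NG2-dsRed+ cells (n = 10). Each library held the sorted cells of 1 mouse. The methods give an age of P15 to P21, whereas the upper age in the labels climbs with the library number, from P21 to P46, so that the age of single mice cannot be read from them. The series' design text counts 1 S100β-GFP+ replicate fewer than the 8 columns of the table and does not say which it leaves out. A reporter marks any cell in which its promoter is or was active, so a gate can hold several cell types.

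The 27 libraries had 5221655 to 9592875 counts. Levels are given as CPM (counts per 1000000 after TMM normalization), and a library without a count of a gene allows a level of up to 0.235 to 0.705 CPM (3 counts, counting error only). Lars2, Gm23935 and Gm15564 together took 3.64 to 36.6% of the counts of PSC libraries, 19.5 to 39.1% of S100β-GFP+ and 12.5 to 40.0% of NG2-dsRed+ libraries. The summed level of 6 Schwann lineage markers (S100b, Sox10, Erbb3, Cdh19, Foxd3, Ngfr) was 1390 to 2027 CPM in PSCs, 35.3 to 180.2 CPM in S100β-GFP+ cells and 18.7 to 60.9 CPM in NG2-dsRed+ cells. Against their label, S100β-GFP+ libraries were thus low beside PSCs in lineage markers such as Sox10. Sums of 6 myelin markers were 1477 to 3505 CPM in S100β-GFP+, 2463 to 3315 in PSC and 298 to 1013 CPM in NG2-dsRed+ libraries. Ngfr did not follow the lineage sum, with means of 9.29, 8.36 and 10.7 CPM in the PSC, S100β-GFP+ and NG2-dsRed+ groups. Compared with NG2-dsRed+ cells, S100β-GFP+ cells were higher in 4 of the 6 lineage markers, beside 18.1% of all tested genes. S100β-GFP+ libraries had 14740 to 30360 CPM over 5 fibroblast markers, against 1236 to 3481 in PSCs and 1825 to 17400 in NG2-dsRed+ libraries. Over 5 leukocyte and macrophage markers they had 272 to 2051 CPM, against 2.45 to 11.4 in PSCs and 5.39 to 24.6 in NG2-dsRed+ libraries. NG2-dsRed+ libraries were high in 7 pericyte and smooth muscle markers (6765 to 14670 CPM). PSC libraries had 769 to 1387 CPM and S100β-GFP+ libraries 227 to 1494 CPM of these. Cspg4, 1 of the 7, did not follow that sum, with means of 686, 70.5 and 663 CPM in the PSC, S100β-GFP+ and NG2-dsRed+ groups. Over 5 endothelial markers NG2-dsRed+ libraries had 1151 to 2710 CPM, against 75.7 to 507 in PSCs and 25.0 to 1990 in S100β-GFP+ libraries. No marker of these lists was at 0 in every library of a group. In bulk samples such as these, fewer cells that express a gene and less RNA of it per cell cannot be told apart, and the part of these other cell types in the results was not tested.

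Slc1a3, Glul, Slc1a1, Slc6a11 and Slc6a13 were the genes of the 9 called lower in PSCs than in NG2-dsRed+ cells, and the stretch of reference genome before their start sites is shown so that the genes can be compared there. The sequences are from RefSeq on GRCm38.p6, 5′ to 3′ on the strand of the gene, from 250 bases before the RefSeq start up to the first base of either the RefSeq or the GENCODE gene. They lie at chr15:8710808-8711057 (minus strand) for Slc1a3 and at chr1:153899679-153899928, chr19:28834885-28835048, chr6:114130991-114131240 and chr6:121300038-121300226 (all plus strand) for Glul, Slc1a1, Slc6a11 and Slc6a13. Of the 3 RefSeq promoters listed for Slc6a13, only the one farthest upstream was used. Capitals mark the GC box, a promoter element that reads GGGCGG, wherever it stood on either strand. They also mark each CCAAT box and each TATA box (TATAAA), likewise on either strand.
Slc1a3: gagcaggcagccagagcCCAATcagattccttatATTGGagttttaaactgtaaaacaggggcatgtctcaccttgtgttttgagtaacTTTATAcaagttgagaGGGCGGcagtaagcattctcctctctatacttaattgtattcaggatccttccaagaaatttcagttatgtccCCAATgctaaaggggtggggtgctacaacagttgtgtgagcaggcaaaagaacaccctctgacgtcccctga
Glul: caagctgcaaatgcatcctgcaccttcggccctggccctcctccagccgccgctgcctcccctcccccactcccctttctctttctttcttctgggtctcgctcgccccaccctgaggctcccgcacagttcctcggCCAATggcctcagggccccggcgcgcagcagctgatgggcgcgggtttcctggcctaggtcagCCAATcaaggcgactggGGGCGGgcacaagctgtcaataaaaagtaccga
Slc1a1: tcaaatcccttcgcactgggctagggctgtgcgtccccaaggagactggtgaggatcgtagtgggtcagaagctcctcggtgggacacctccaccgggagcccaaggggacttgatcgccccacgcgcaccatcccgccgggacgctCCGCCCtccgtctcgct
Slc6a11: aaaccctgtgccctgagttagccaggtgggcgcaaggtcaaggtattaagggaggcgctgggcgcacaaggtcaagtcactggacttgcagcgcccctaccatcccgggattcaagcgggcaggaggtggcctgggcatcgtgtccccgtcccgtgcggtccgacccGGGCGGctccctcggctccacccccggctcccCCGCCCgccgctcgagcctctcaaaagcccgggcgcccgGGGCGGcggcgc
Slc6a13: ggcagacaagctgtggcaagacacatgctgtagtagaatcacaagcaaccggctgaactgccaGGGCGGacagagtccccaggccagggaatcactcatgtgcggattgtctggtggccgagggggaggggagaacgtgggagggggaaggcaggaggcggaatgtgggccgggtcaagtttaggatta

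Each of the 5 stretches held a GC box, with 3 matches in Slc6a11 and 1 in each of the others. This sequence was also present in 32.7% of all 32851 listed promoters over the same 250 bases, and in 22.6% and 18.6% over the shorter stretches of 189 and 164 bases used for Slc6a13 and Slc1a1. CCAAT boxes were found before Slc1a3 (3 matches) and Glul (2 matches) and in 33.8% of all promoters. The only TATA box letters were before Slc1a3, on the strand opposite to the gene, and 12.4% of all promoters had them. These matches describe the reference sequence and were not tested for any function.

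The first question was how PSCs differ in glutamate handling from the other sorted cells. PSCs had less Slc1a3 and Glul than either other group, by 8.09- to 9.41-fold and by 2.00- to 2.53-fold. Slc1a2 was intermediate in PSCs, below S100β-GFP+ cells and above NG2-dsRed+ cells. Slc1a1 was low in PSCs and high in NG2-dsRed+ cells. The plot of CPM by library shows the single values behind these statements.

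**Figure D1:**
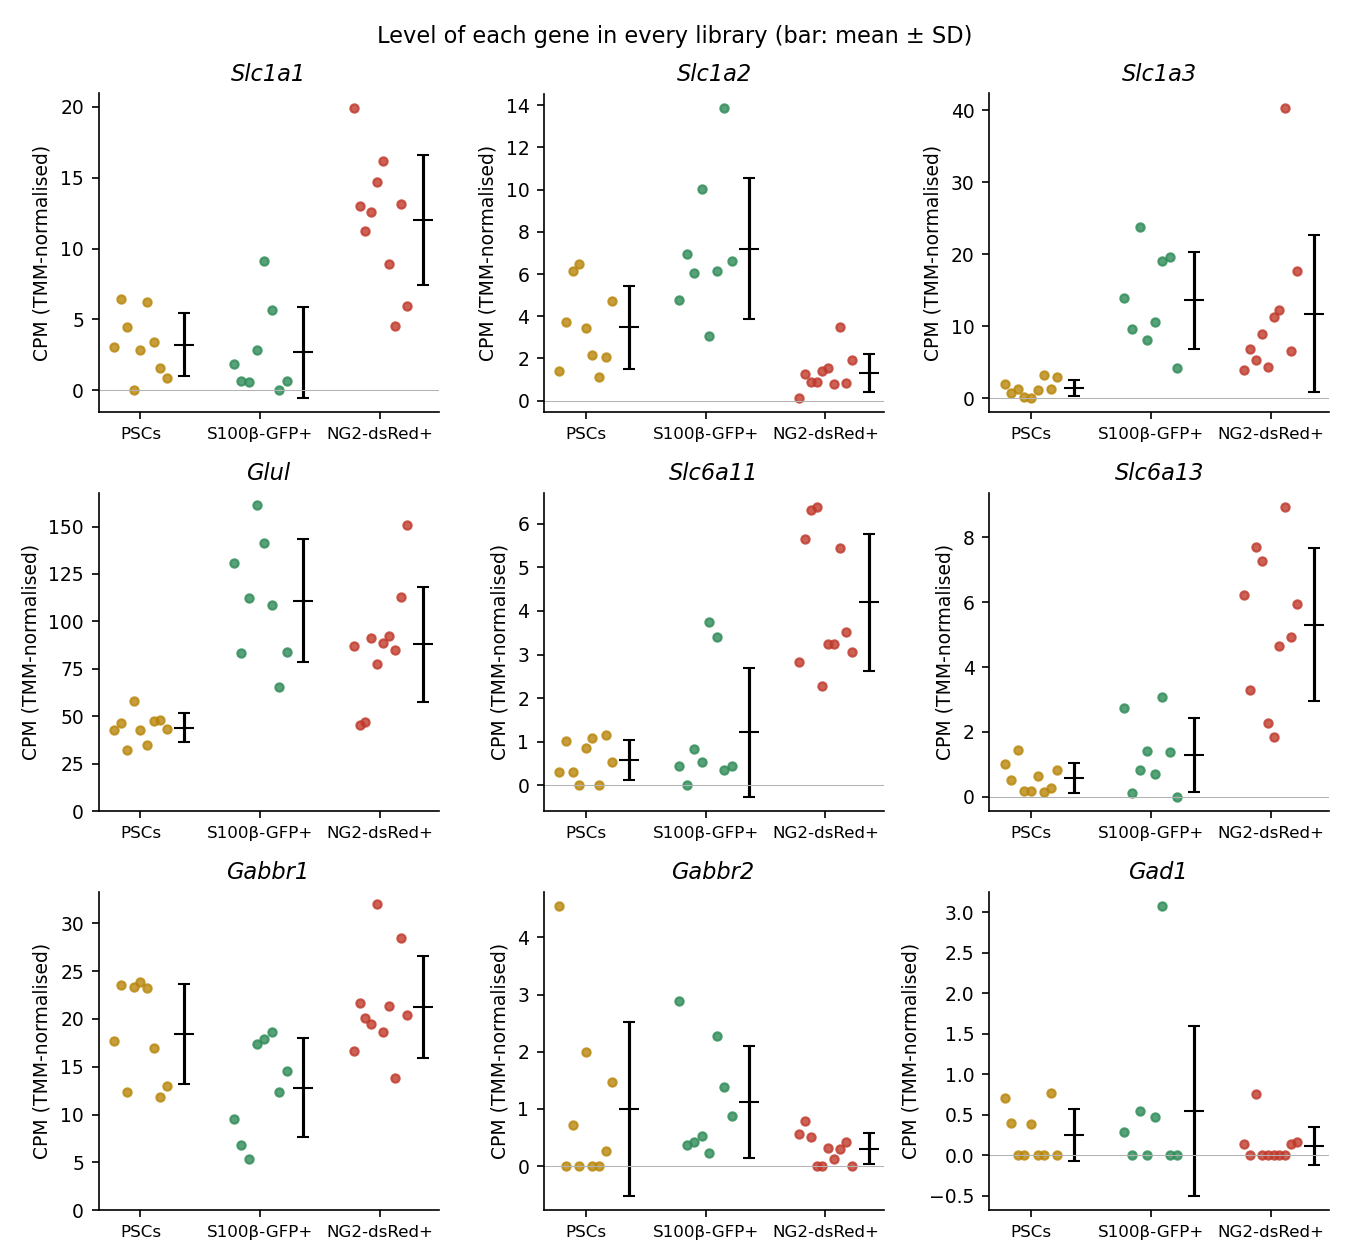
Level of the 9 genes in CPM (vertical axis, linear) in every library of PSCs (n = 9), S100β-GFP+ (n = 8) and NG2-dsRed+ cells (n = 10), with 1 point per library and bars for mean ± SD. All 9 PSC libraries lie below all others for Slc1a3, and the 10 NG2-dsRed+ libraries lie above all PSC libraries for Slc6a11 and Slc6a13.

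Slc1a3 (ENSMUSG00000005360, chr15:8634124-8710764 on GRCm38, minus strand) encodes GLAST, the glutamate transporter of astrocytes and other glia. In PSCs its lowest, median and highest levels were 0.0951, 1.25 and 3.27 CPM. S100β-GFP+ libraries had 4.20, 12.2 and 23.8 CPM, and NG2-dsRed+ libraries 3.96, 7.89 and 40.3 CPM. No PSC library overlapped with either of the other groups, which overlapped with each other almost entirely. The means were 1.43 ± 1.11, 13.6 ± 6.71 and 11.8 ± 10.9 CPM (SD). In the fit across all genes (edgeR quasi-likelihood test, Benjamini-Hochberg adjustment) the log2 fold change of PSCs was -3.23 against S100β-GFP+ cells (SE 0.518, adjusted p = 6.3e-06) and -3.02 against NG2-dsRed+ cells (SE 0.502, adjusted p = 1.29e-05). Between the other two groups it was 0.22 (95% interval -0.679 to 1.12, adjusted p = 0.761). Both groups with high Slc1a3 also had higher fibroblast markers than most PSC libraries. Among NG2-dsRed+ libraries, the highest Slc1a3 levels (40.3 CPM in library 28 and 17.7 in library 35) stood beside the highest fibroblast marker sums (17400 and 14110 CPM). Within S100β-GFP+ libraries the highest fibroblast sum (30360 CPM, library 14) went with 8.08 CPM of Slc1a3. The share of fibroblasts in these levels was not tested.

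Glul (ENSMUSG00000026473, chr1:153899944-153909723, plus strand) was the most abundant of the 9 genes. Its lowest, median and highest levels were 32.3, 43.4 and 58.3 CPM in PSCs, 65.5, 110.7 and 161 CPM in S100β-GFP+ cells and 45.5, 87.8 and 151 CPM in NG2-dsRed+ cells. Every S100β-GFP+ library and 8 of 10 NG2-dsRed+ libraries were above all PSC libraries. Glul was lower in PSCs by 1.34 on the log2 scale against S100β-GFP+ cells (SE 0.201, adjusted p = 2.3e-06) and by 1.00 against NG2-dsRed+ cells (SE 0.192, adjusted p = 8.76e-05). PSC libraries were also the most alike, with an SD of 7.61 CPM around a mean of 43.9 CPM, against 110.9 ± 32.5 and 87.9 ± 30.1 CPM. Between S100β-GFP+ and NG2-dsRed+ cells the log2 fold change was 0.34 (SE 0.194, adjusted p = 0.19), and without NG2-dsRed+ library 35 it was 0.49 (adjusted p = 0.0366). Exons of Glul overlap Teddm2 on the opposite strand over 116 bases, and Teddm2 was at 1.64, 5.79 and 2.35 CPM in the PSC, S100β-GFP+ and NG2-dsRed+ groups.

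Slc1a2 (ENSMUSG00000005089, chr2:102658659-102790784, plus strand) encodes GLT1, the main glutamate transporter of astrocytes. Levels ran from 1.14 to 6.45 CPM in PSCs (median 3.42), from 3.05 to 13.9 CPM in S100β-GFP+ libraries (median 6.39) and from 0.141 to 3.48 CPM in NG2-dsRed+ cells (median 1.07). The groups formed a series of means, 7.19 ± 3.34 CPM in S100β-GFP+ cells, 3.47 ± 1.96 in PSCs and 1.31 ± 0.907 in NG2-dsRed+ cells, in which neighbours overlapped. PSCs were higher than NG2-dsRed+ cells by 1.39 on the log2 scale (SE 0.398, adjusted p = 0.00512), with 4 PSC libraries above every NG2-dsRed+ library. They were lower than S100β-GFP+ cells by a log2 fold change of -1.05 (SE 0.401, adjusted p = 0.0318), and 4 of the 8 S100β-GFP+ libraries were above all PSC libraries. That second call was lost when any of PSC libraries 4, 23, 31 or 34 or S100β-GFP+ libraries 14 or 27 was left out, with values from -0.99 to -0.85 and adjusted p from 0.0526 to 0.0937. It was also lost without libraries 14, 17 and 22 together (-1.09, adjusted p = 0.0595). S100β-GFP+ cells were higher than NG2-dsRed+ cells too (log2 fold change 2.45, SE 0.411, adjusted p = 2.2e-05).

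Slc1a1 (ENSMUSG00000024935, chr19:28835049-28913960, plus strand) encodes EAAC1, a glutamate and cysteine transporter best known from neurons. Its lowest, median and highest levels were 0, 3.06 and 6.43 CPM in PSCs, 0, 1.27 and 9.16 CPM in S100β-GFP+ cells and 4.54, 12.8 and 19.9 CPM in NG2-dsRed+ cells. NG2-dsRed+ cells were the high group, and 8 of their 10 libraries were above all PSC libraries. The log2 fold change of PSCs was -1.90 against NG2-dsRed+ cells (SE 0.565, adjusted p = 0.00714), and that of S100β-GFP+ cells was -2.19 (SE 0.609, adjusted p = 0.00565). PSCs and S100β-GFP+ cells differed by 0.30 (95% interval -0.886 to 1.48, adjusted p = 0.719) over all libraries.

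The S100β-GFP+ libraries were not alike in Slc1a1. Libraries 14, 17 and 22, which had been set apart in earlier work on these data, were at 2.81, 9.16 and 5.67 CPM, and the other 5 at 0 to 1.88 CPM. The criterion of that split is not stated here and it came from these same data. Fits without these libraries are therefore no independent test for any gene. Without those 3 libraries PSCs were higher than S100β-GFP+ cells by 2.11 on the log2 scale (adjusted p = 0.0112). The limma-voom fit, which weights libraries by quality, gave 1.79 (adjusted p = 0.0327). The same 3 libraries were high in endothelial markers. Their sums were 541, 1990 and 1067 CPM in libraries 14, 17 and 22 and 25.0 to 99.9 CPM in the other 5. In PSCs they were 75.7 to 507 CPM, and the library with the lowest sum (18) was the one without a count of Slc1a1. The PSC library with the highest sum (31) had 3.42 CPM of Slc1a1, below the 6.43 CPM of library 6 (sum 372 CPM) and the 6.24 CPM of library 23 (268 CPM). Among NG2-dsRed+ libraries, 28 and 35 had the lowest sums (1151 and 1461 CPM) and the lowest Slc1a1 (4.54 and 5.96 CPM). These libraries stood apart in pericyte and smooth muscle markers too. Those sums were 914, 1494 and 1276 CPM in S100β-GFP+ libraries 14, 17 and 22 and 227 to 775 CPM in the other 5. NG2-dsRed+ libraries 28 and 35 had the lowest such sums of their group (7360 and 6765 CPM). PSC library 18, without a count of Slc1a1, had the highest of its group (1387 CPM). The part of endothelial cells, pericytes or smooth muscle cells in Slc1a1 was not tested. Exons of Slc1a1 also overlap 4430402I18Rik on the opposite strand over 2631 bases, and that gene was at 6.52, 1.08 and 2.69 CPM in the PSC, S100β-GFP+ and NG2-dsRed+ groups. How reads of the shared stretch were assigned is not known, so that the levels of Slc1a1 may be affected in any group.

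**Figure D2:**
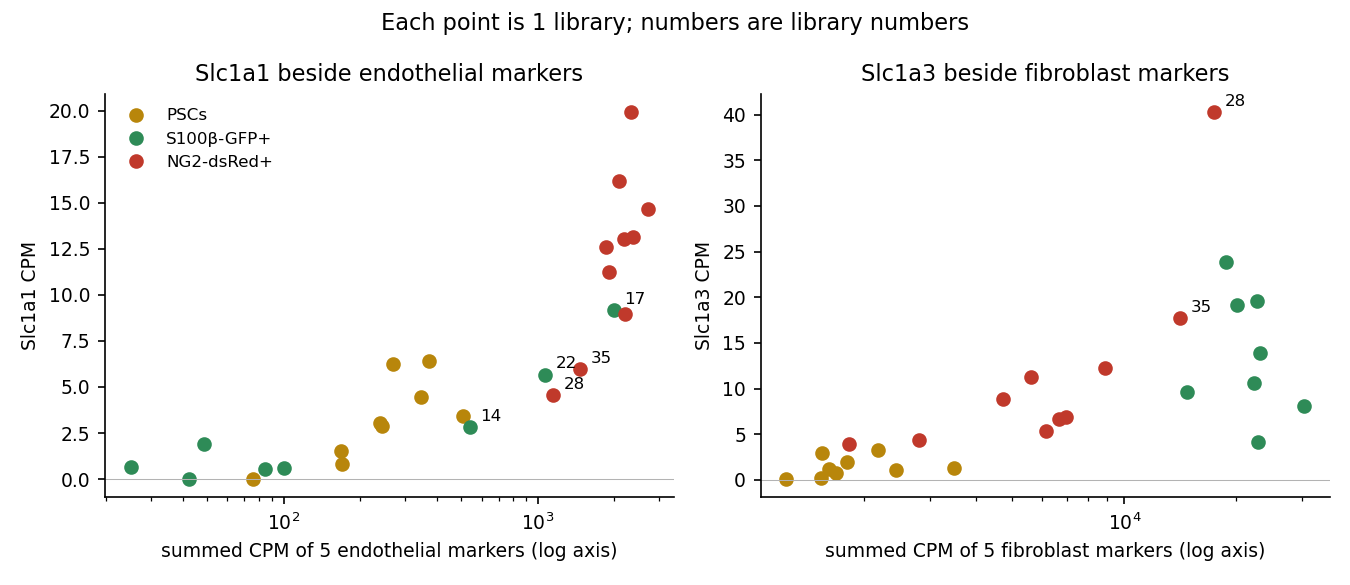
Slc1a1 against the summed level of 5 endothelial markers (left) and Slc1a3 against that of 5 fibroblast markers (right), in CPM with a log horizontal axis and 1 point per library. S100β-GFP+ libraries 14, 17 and 22 lie at endothelial sums of 541 to 1990 CPM with 2.81 to 9.16 CPM of Slc1a1, and NG2-dsRed+ libraries 28 and 35 lie at the highest fibroblast sums of their group with its highest Slc1a3.

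The 3 transporters made up different shares of their summed RNA in each group when each level was divided by its exon length. Per kb, their summed level was 0.820 ± 0.258 CPM in PSCs, 2.46 ± 0.853 CPM in S100β-GFP+ cells and 2.93 ± 0.984 CPM in NG2-dsRed+ cells. In PSCs Slc1a1 had a median share of 46.9%, Slc1a2 of 31.7% and Slc1a3 of 12.7%, and Slc1a1 was the largest in 7 of 9 libraries. The lengths were those of all annotated exons of a gene merged, 8.26 kb for Slc1a1 and 13.1 kb for Slc1a2. Before the division the PSC means were 3.21 CPM for Slc1a1 and 3.47 CPM for Slc1a2. The lead of Slc1a1 over Slc1a2 in PSCs thus depends on these lengths. In S100β-GFP+ cells Slc1a3 was the largest in 7 of 8 libraries, with a median share of 65.45%. NG2-dsRed+ libraries were led by Slc1a1 in 7 and by Slc1a3 in 3, and Slc1a2 did not go above 5.00% there. Slc1a3, the largest share in S100β-GFP+ cells, led in none of the PSC libraries. These shares describe the levels above and have no test of their own. Slc1a6 and Slc1a7, also glutamate transporters, were left out of the sum and had PSC means of 0.399 and 0.325 CPM.

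**Figure D3:**
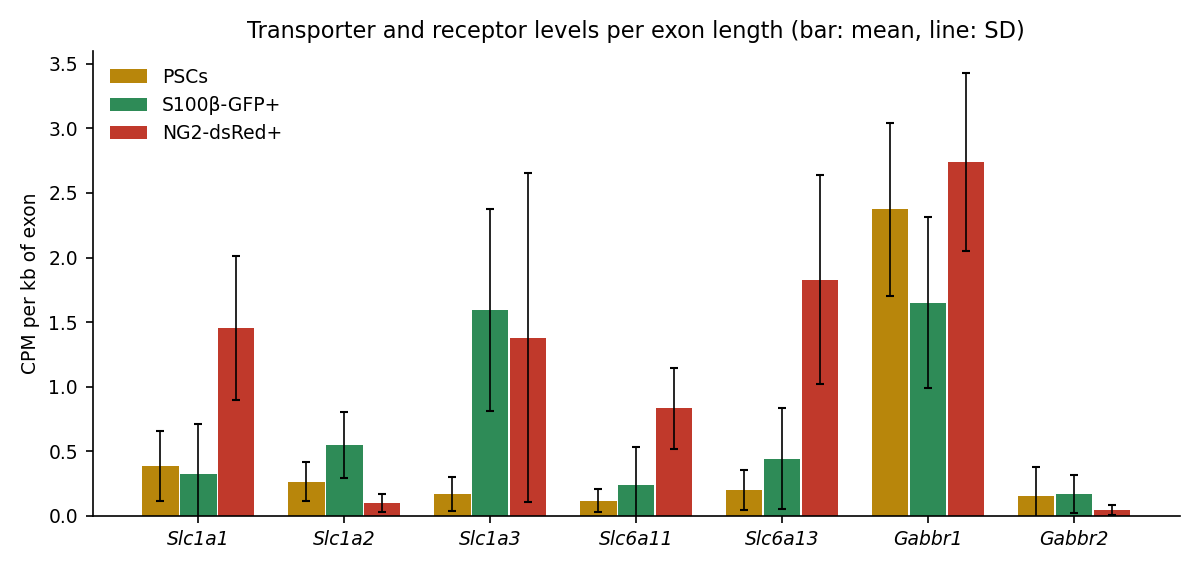
Mean level per kb of exon (vertical axis, CPM per kb, linear from 0, bars) with SD (lines) of the transporter and receptor genes in PSCs (n = 9), S100β-GFP+ (n = 8) and NG2-dsRed+ cells (n = 10). In PSCs the highest bar is Gabbr1 at 2.37 CPM per kb, and no transporter exceeds 0.388.

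The transporters for GABA were close to the detection limit in PSCs and reached a few CPM in NG2-dsRed+ cells. Slc6a11 (ENSMUSG00000030307, chr6:114131241-114249952, plus strand) encodes the GABA transporter known as GAT3 in humans, and Slc6a13 (ENSMUSG00000030108, chr6:121300227-121337733, plus strand) encodes GAT2, which also carries taurine and betaine and is known from liver, kidney and the meninges. Slc6a11 was at 0, 0.523 and 1.16 CPM (lowest, median, highest) in PSCs, at 0, 0.485 and 3.76 CPM in S100β-GFP+ cells and at 2.27, 3.38 and 6.39 CPM in NG2-dsRed+ cells. Slc6a13 was at 0.142, 0.502 and 1.45 CPM in PSCs, at 0, 1.11 and 3.08 CPM in S100β-GFP+ cells and at 1.85, 5.45 and 8.94 CPM in NG2-dsRed+ cells. For both genes all 10 NG2-dsRed+ libraries were above all PSC libraries, which rest on 47 and 50 counts in all.

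The log2 fold change of PSCs against NG2-dsRed+ cells was -2.80 for Slc6a11 (SE 0.597, adjusted p = 0.000314) and -3.12 for Slc6a13 (SE 0.532, adjusted p = 1.77e-05). S100β-GFP+ cells were lower than NG2-dsRed+ cells by 1.80 (SE 0.6, adjusted p = 0.0204) and by 2.02 (SE 0.529, adjusted p = 0.00348) on the same scale. Since both genes entered the test through the NG2-dsRed+ libraries, a gene of this level could hardly have been tested without such a difference. Against S100β-GFP+ cells the values of PSCs were -0.99 (SE 0.626, adjusted p = 0.199) for Slc6a11 and -1.11 (SE 0.548, adjusted p = 0.0992) for Slc6a13. The first of these turned to 0.58 (adjusted p = 0.514) without S100β-GFP+ libraries 14, 17 and 22, where Slc6a11 was at 0.527, 3.76 and 3.40 CPM, against 0 to 0.826 CPM in the other 5. Library 14 was thus within the range of those 5. Without S100β-GFP+ library 3 or library 33 the second passed the threshold, at -1.29 (adjusted p = 0.0475) and -1.29 (adjusted p = 0.0413).

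On chromosome 6, Slc6a13 lies beside Slc6a12 (the betaine and GABA transporter BGT1), which follows it at 5.34 kb on the same strand with no protein-coding gene between. Slc6a12 was not tested and was at 0.295 ± 0.537, 1.82 ± 1.89 and 0.749 ± 0.723 CPM in the PSC, S100β-GFP+ and NG2-dsRed+ groups.

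Of the receptor subunits, Gabbr1 was measured in every library and Gabbr2 was near the detection limit. Gabbr1 (ENSMUSG00000024462, chr17:37045966-37075067, plus strand), the subunit that binds GABA, was at 11.9, 17.7 and 23.9 CPM (lowest, median, highest) in PSCs, at 5.37, 13.4 and 18.6 CPM in S100β-GFP+ cells and at 13.8, 20.3 and 32.0 CPM in NG2-dsRed+ cells. All groups overlapped. PSCs and NG2-dsRed+ cells differed by -0.21 on the log2 scale (95% interval -0.629 to 0.219, adjusted p = 0.471). S100β-GFP+ cells were lower than NG2-dsRed+ cells by 0.73 (SE 0.229, adjusted p = 0.0136), and 7 of 10 NG2-dsRed+ libraries were above all of theirs. Against S100β-GFP+ cells, Gabbr1 in PSCs missed the threshold at 0.53 (SE 0.232, adjusted p = 0.064), with 4 of 9 PSC libraries above every S100β-GFP+ library. It passed under 13 of the other settings, among them 0.98 (adjusted p = 0.00179) without libraries 14, 17 and 22, 0.89 (adjusted p = 0.00158) with the share of Lars2, Gm23935 and Gm15564 as a term, and 0.67 (adjusted p = 0.0221) with limma-voom. Under 21 it did not pass. Among these were DESeq2 (0.51, adjusted p = 0.0579), DESeq2 size factors (0.50, adjusted p = 0.0716), no filter (0.57, adjusted p = 0.0559) and only the groups compared (0.52, adjusted p = 0.12). Libraries 14, 17 and 22 had a mean of 18.0 CPM of Gabbr1 and the other 5 S100β-GFP+ libraries of 9.73 CPM.

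Gabbr2 (ENSMUSG00000039809, chr4:46662305-46991873, minus strand) encodes the subunit that couples the receptor to G proteins and carries it to the cell surface. It had no count in 4 of 9 PSC libraries and in 3 of 10 NG2-dsRed+ libraries. Its median was 0.258 CPM in PSCs (highest 4.55), 0.706 CPM in S100β-GFP+ cells (0.235 to 2.89) and 0.305 CPM in NG2-dsRed+ cells (highest 0.785). The mean log2 CPM of S100β-GFP+ cells was 1.13 above that of NG2-dsRed+ cells (exact permutation test, two-sided, unadjusted p = 0.0133 in 1 of 6 such tests), and an edgeR fit without the filter gave 1.78 with an adjusted p of 0.119. PSCs differed by -0.64 from S100β-GFP+ cells (exact permutation p = 0.332) and by 0.49 from NG2-dsRed+ cells (exact permutation p = 0.388). Per kb of exon, Gabbr1 made up a median of 97.5% of the RNA of both subunits in PSCs. Its median share was 92.6% in the S100β-GFP+ group and 98.2% in the NG2-dsRed+ group, and it was the larger in all 27 libraries.

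Gad1 (ENSMUSG00000070880, chr2:70553072-70602014, plus strand) was at or near 0 in all groups. Of 9 PSC libraries 5 had no count, as had 4 of 8 S100β-GFP+ and 6 of 10 NG2-dsRed+ libraries, and the totals were 23, 27 and 9 counts. Differences in mean log2 CPM were -0.26 between PSCs and S100β-GFP+ cells (exact permutation p = 0.673), 0.32 between PSCs and NG2-dsRed+ cells (p = 0.338) and 0.58 between the other two (p = 0.251). A difference in Gad1 was not detectable at this depth.

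**Figure D4:**
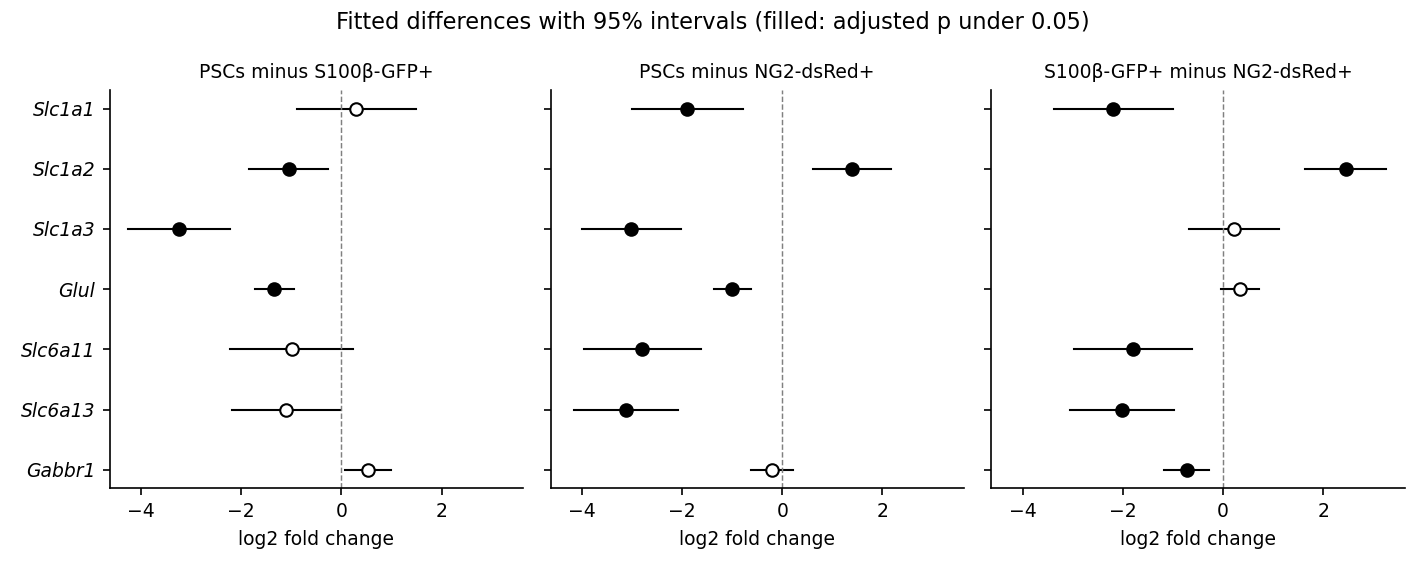
Fitted log2 fold changes (horizontal axis) of the 7 tested genes with 95% intervals in the 3 comparisons; filled circles have an adjusted p under 0.05. Slc1a3 and Glul lie left of 0 in both comparisons of PSCs, Slc1a2 lies on opposite sides of 0 in them, and the intervals of Gabbr1 in PSCs are the narrowest after those of Glul.

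Over the 7 tested genes, PSCs were lower than S100β-GFP+ cells in 3 (Slc1a2, Slc1a3, Glul) and higher in 0, where 24.1% of all tested genes were called lower and 22.9% higher. Against NG2-dsRed+ cells PSCs were lower in 5 (Slc1a1, Slc1a3, Slc6a11, Slc6a13, Glul) and higher in Slc1a2, beside 23.1% lower and 20.9% higher among all genes. S100β-GFP+ cells were lower than NG2-dsRed+ cells in 4 (Slc1a1, Slc6a11, Slc6a13, Gabbr1) and higher in Slc1a2, beside 15.2% lower and 18.1% higher. These counts include genes that passed the filter through the group in which they are high and are given as a description. No gene of the 9 was highest in PSCs with both tests past the threshold.

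Among other genes of glutamate transport and metabolism, most of those tested were lower in PSCs. Of 19 such genes 13 were tested against S100β-GFP+ cells, of which 11 were lower in PSCs, 0 higher and 2 not past the threshold. The median log2 fold change was -1.66, beside 0.0422 over all genes, of which 24.1% were called lower and 22.9% higher. Against NG2-dsRed+ cells 8 were lower, 0 higher and 5 not past it, with a median of -0.786 beside 0.021. Among all genes 23.1% were called lower there and 20.9% higher. Slc1a5 (ASCT2, a glutamine and neutral amino acid exchanger) was at 21.9 ± 6.92, 134 ± 19.1 and 74.9 ± 10.2 CPM in the PSC, S100β-GFP+ and NG2-dsRed+ groups, and its log2 fold changes in PSCs were -2.62 (SE 0.156, adjusted p = 7.38e-14) and -1.77 (SE 0.147, adjusted p = 4.66e-11). Its highest PSC library, at 38.3 CPM, was below its lowest library of the other groups, at 61.2 CPM. Arl6ip5, whose product binds and restrains EAAC1, was lower by 1.73 and 1.49 on the log2 scale. Slc3a2, the heavy chain of several amino acid exchangers, was lower by 1.47 and 1.16, and the cytosolic aspartate aminotransferase Got1 by 2.15 and 0.79. Slc38a1 and Slc7a11 were picked after their values were seen, because they stood apart in S100β-GFP+ cells. Slc38a1, a glutamine importer, was at 0.823 ± 0.476, 34.9 ± 19.8 and 1.19 ± 0.652 CPM. Slc7a11, the cystine-glutamate exchanger xCT, was at 2.90 ± 3.53, 38.2 ± 26.3 and 4.30 ± 2.42 CPM. All S100β-GFP+ libraries also had leukocyte and macrophage markers at 272 to 2051 CPM, and the part of such cells in these levels was not tested.

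Genes of GABA transport and breakdown were mixed. Of 8 listed genes 5 were tested, and PSCs were higher in 1 and lower in 3 against S100β-GFP+ cells (median -0.781) and higher in 0 and lower in 2 against NG2-dsRed+ cells (median -0.0479). Among all tested genes the shares were 22.9% higher and 24.1% lower in the first comparison and 20.9% and 23.1% in the second (medians 0.0422 and 0.021), and the same background holds for the lists that follow. Maob, a monoamine oxidase that also acts in GABA synthesis from putrescine, was at 0.480 ± 0.516 CPM in PSCs and lower there by 3.93 and 3.15 on the log2 scale (adjusted p = 2.46e-06 and 3.97e-05). The taurine transporter Slc6a6 was lower by 1.69 and 1.77 (adjusted p = 2.98e-07 and 9.47e-08). The aldehyde dehydrogenase Aldh9a1 was at 19.2 ± 5.20, 32.9 ± 11.0 and 19.8 ± 1.30 CPM. Abat, the GABA transaminase, which was first named after its values were seen, was at 18.8 ± 10.1, 10.6 ± 3.91 and 16.9 ± 5.65 CPM and exceeded S100β-GFP+ cells in PSCs by 0.82 (adjusted p = 0.0206), a call lost with limma-voom (0.57, adjusted p = 0.088).

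Subunits of the ligand-gated GABA-A channel differed in the group in which they were highest. Of 18 listed subunits 4 were tested, and PSCs were higher in 0 and lower in 2 against S100β-GFP+ cells (median -1.66) and higher in 1 and lower in 1 against NG2-dsRed+ cells (median 0.545). Gabra2 and Gabra3, alpha subunits, had their highest means in S100β-GFP+ cells (7.98 ± 5.03 and 14.4 ± 4.91 CPM), and Gabrr1, a rho subunit, in NG2-dsRed+ cells (6.98 ± 7.93 CPM). In PSCs, Gabra2 and Gabra3 were lower than in S100β-GFP+ cells by 4.19 and 2.99 on the log2 scale (adjusted p = 0.000185 and 0.00142), and Gabrr1 was lower than in NG2-dsRed+ cells by 5.06 (adjusted p = 0.000147). Gabra2 had 35, 375 and 13 counts in the PSC, S100β-GFP+ and NG2-dsRed+ groups and Gabrr1 14, 11 and 441, so that each was tested mainly through the group in which it is high, and such a gene could hardly have been tested without a difference. Gabre, the epsilon subunit, had mean levels of 3.31 ± 2.15, 3.13 ± 2.13 and 1.23 ± 0.823 CPM (PSC, S100β-GFP+, NG2-dsRed+), and PSCs exceeded the last group by 1.42 on the log2 scale (SE 0.499, adjusted p = 0.0213). Gabra3 reached 13.6 CPM in 1 PSC library (18), and its log2 fold change in PSCs against NG2-dsRed+ cells went from 0.0016 to -1.83 (adjusted p = 0.00514) without it. No beta subunit passed the filter in any group.

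Metabotropic glutamate receptors were represented by Grm5, the 1 tested gene of 7 in that list. Grm5, a receptor coupled to Gq proteins, was at 0 to 14.0 CPM in PSCs (mean 5.40 ± 4.74), at 0 to 2.92 CPM in S100β-GFP+ cells and at 0 to 0.314 CPM in NG2-dsRed+ cells. PSCs were higher by 2.86 (SE 0.827, adjusted p = 0.00539) and 6.16 (SE 0.976, adjusted p = 6.38e-06) on the log2 scale. Grm5 had 505, 34 and 4 counts in the 3 groups and was likewise tested mainly through the PSC libraries. The value against S100β-GFP+ cells fell to 1.68 (adjusted p = 0.187) with the share of Lars2, Gm23935 and Gm15564 as a term. Grm8, Grm3 and Grm7 had means under 1 CPM in all groups.

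Among 15 partners and effectors of the GABA-B receptor, 9 were tested. PSCs were higher in 2 and lower in 4 against S100β-GFP+ cells (median -0.369) and higher in 1 and lower in 6 against NG2-dsRed+ cells (median -1.07), so that the 2 of 9 higher in the first comparison are near the 22.9% of all genes. Ajap1 and Pianp encode membrane proteins that bind the GABA-B receptor subunit of Gabbr1 at its extracellular end. They went in opposite directions in PSCs. Ajap1 was at 380 to 559 CPM in every PSC library, at 0.347 to 5.35 CPM in S100β-GFP+ and at 4.85 to 13.8 CPM in NG2-dsRed+ libraries, with log2 fold changes of 7.99 (SE 0.412, adjusted p = 5.68e-15) and 5.72 (SE 0.329, adjusted p = 2.19e-14). Pianp was at 0 to 0.517 CPM in PSCs, against 1.41 to 5.35 and 0.151 to 2.80 CPM, with log2 fold changes of -4.78 (SE 0.653, adjusted p = 4.85e-07) and -3.53 (SE 0.633, adjusted p = 3.69e-05). It had 9, 183 and 101 counts in the PSC, S100β-GFP+ and NG2-dsRed+ groups. Pianp was thus near the detection limit in PSCs and tested mainly through groups in which it is higher. Kctd12, an auxiliary subunit that sets the speed and decay of the receptor response, was lower in PSCs by 3.73 and 2.18 (adjusted p = 3.3e-09 and 1.02e-05). Gnai2, an inhibitory G protein alpha subunit, was at 294 ± 74.2, 502 ± 76.9 and 619 ± 108 CPM and lower in PSCs by 0.78 and 1.07 (adjusted p = 0.000167 and 1.06e-06). Kcnj3, a subunit of the potassium channels that such G proteins open, was not tested and was named after its values were seen. It was at 0 to 4.68 CPM in PSCs, at 0 to 1.30 CPM in S100β-GFP+ cells and without a count in NG2-dsRed+ cells, which allows up to 0.0449 CPM over that group (3 counts).

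**Figure D5:**
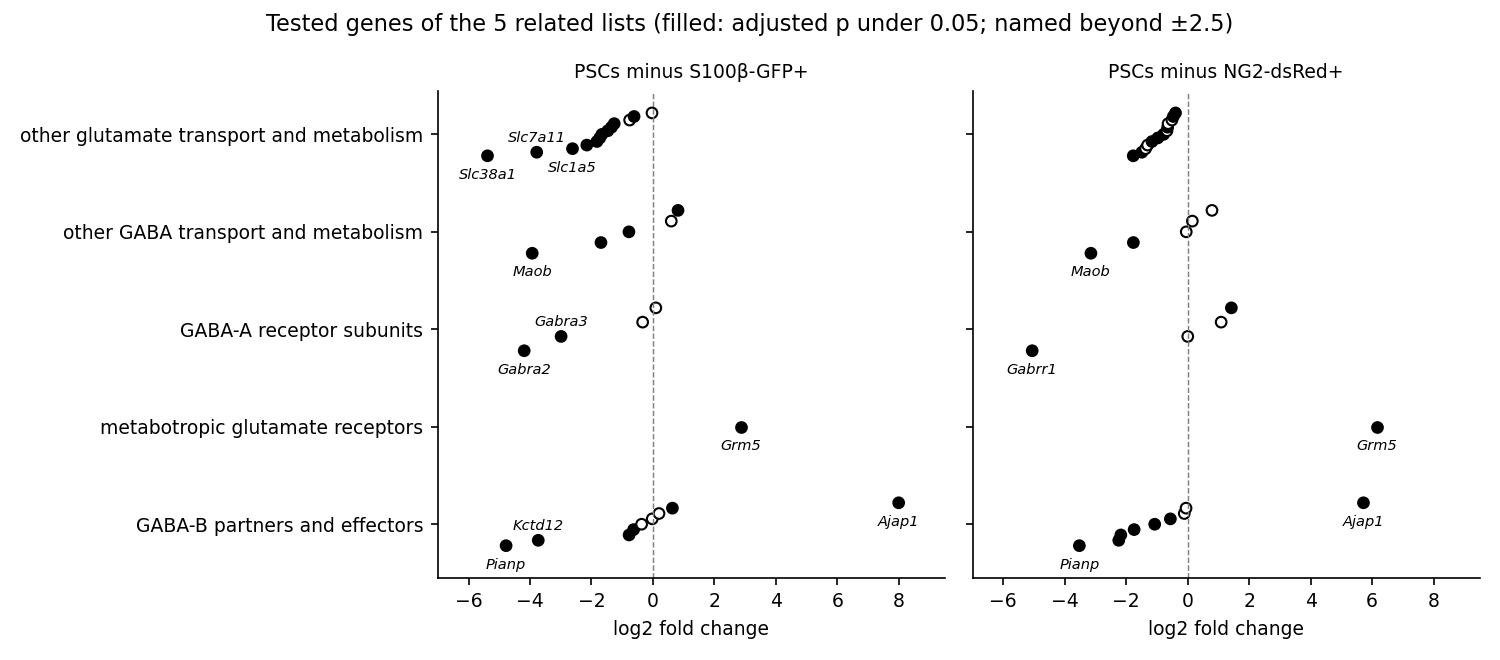
Log2 fold changes (horizontal axes) of the 32 tested genes of the 5 lists, PSCs minus S100β-GFP+ cells on the left and PSCs minus NG2-dsRed+ cells on the right; each point is 1 gene, filled where the adjusted p was under 0.05. None of the 13 tested genes of glutamate transport and metabolism is past the threshold on the right of 0, whereas Grm5 and Ajap1 lie far to the right in both panels.

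For each tested gene the 3 genes most like it over the 27 libraries were sought by the root mean square difference of centred log2 CPM. Nearest to Slc1a1 were Hey1, Tcim and Zfp366 (0.668 to 0.701, against 1.71 for the spread of Slc1a1 itself). Slc1a3 was followed most closely by Adamtsl3, Egfr and Pdgfrl (0.683 to 0.728, own spread 1.69), and Slc1a2 by Cpq, P2rx4 and Timp2 (0.607 to 0.681, own spread 1.19). Slc6a11 was nearest to Meox2, Col15a1 and Stk38l (0.735 to 0.77, own spread 1.44) and Slc6a13 to Synpo2l, Sgip1 and Cdk15 (0.634 to 0.76, own spread 1.49). Gabbr1 varied least (own spread 0.56) and was nearest to Bckdha, Rnf14 and Bcl9l (0.347 to 0.353). Glul, with an own spread of 0.667, was nearest to Sqstm1, Sertad1 and Qsox1 (0.394 to 0.422). None of the 7 tested genes was among the 3 nearest to another of them, and Gabbr2 and Gad1 were not part of the search. With 3 places among 15330 tested genes, this cannot show whether the genes vary together.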

How the data were processed

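RNA-seq of FACS-isolated cells (SMART-Seq v4 libraries) was analysed. Trimming (ea-utils, Btrim), alignment (HISAT2) and counting by gene (HTSeq) were done by the authors, and the deposited values are the raw counts. GRCm38 is named in the submitters' processing notes; tool versions, annotation and strand use (not given in the sources used here) decide how reads of overlapping genes were treated. Of 36 labelled libraries, the 27 in the table were used by library number, and the others were not analysed here. Symbols and positions are from GENCODE M21 (99.72% of identifiers).

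Counts were fitted in R 4.3.3 with edgeR 4.0.16 (TMM, filterByExpr with minimum count 10, all 3 groups in 1 quasi-likelihood fit, Benjamini-Hochberg over 15330 genes, threshold 0.05). Genes outside the filter had an exact permutation test of mean log2 CPM (prior count 2, SciPy 1.17.1, two-sided). Scripts were tested on simulated data. Alternatives were DESeq2 1.42.0, limma-voom (limma 3.58.1), DESeq2 size factors, no filter, only the groups compared, the share of Lars2, Gm23935 and Gm15564 as a term, no libraries 14, 17 and 22, and each library left out. Depth was 5221655 to 9592875 counts; PCR copies cannot be told from molecules. No libraries of a group were identical (chi-square per degree of freedom at least 8.10).

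The 9 genes and the lists were chosen with earlier results of these data known. From each list up to 4 genes past the threshold against both other groups were named by mean size of change, then those highest in mean CPM. Slc38a1, Slc7a11, Abat and Kcnj3 were added after their values were seen (Abat also meets the rule in its list as reported). Some genes of the lists are not reported here, and their counts leave them out.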

Additional observations from a re-analysis of the deposited data

Results flagged for a closer look

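Of 27 combinations of gene and group, 4 had 1 library far from the others by Dixon's ratio. Its limits flag about 1 in 20 among normally distributed values. Levels of Gabbr2 and Gad1, with many libraries at 0, are not of that kind, so that the number of flags cannot be set against that rate. Slc1a3 was at 40.29 CPM in NG2-dsRed+ library 28, and the next library was at 17.71 CPM. Gabbr2 was at 4.551 CPM in PSC library 4, and the next was at 1.998 CPM. Gad1 was at 3.079 CPM in S100β-GFP+ library 22, with the next at 0.5508 CPM, and at 0.7589 CPM in NG2-dsRed+ library 9, with the next at 0.161 CPM. NG2-dsRed+ library 28 also had the lowest Slc1a1 (4.54 CPM) and the highest Slc1a2 (3.48 CPM) and Slc6a13 (8.94 CPM) of its group, and without it the PSC comparisons of all 4 genes kept their direction and their side of the threshold.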

How the results depend on the processing

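Under the alternatives, 693 values for the 9 genes kept their direction and their side of the threshold, 18 passed it newly, 7 lost it and 2 turned direction. The turned values were Slc6a11 in PSCs against S100β-GFP+ cells without libraries 14, 17 and 22 (0.58, adjusted p = 0.514) and Gabbr1 in PSCs against NG2-dsRed+ cells with the share of Lars2, Gm23935 and Gm15564 as a term (0.083, adjusted p = 0.773); the cause was not tested. Of the 7 tested genes, limma-voom called 5 between PSCs and S100β-GFP+ cells (2 higher, 3 lower) and the main test 3. With each library left out in turn, 2 to 4 were called there, 6 against NG2-dsRed+ cells, and 5 to 6 between the other groups. Of the list genes, 24 were called between PSCs and S100β-GFP+ cells and 18 between the other groups, and 44 and 29 with no filter, where 67 were tested in place of 32. Named list genes turned direction only where the main test had not called them (Aldh9a1, Gabra2, Gabra3 and Abat against NG2-dsRed+ cells, Gabrr1 and Gabre against S100β-GFP+ cells). The median of all genes moved by less than 0.1 on the log2 scale under every scaling. No paired analysis was possible because library numbers are not shared between groups. Whether libraries of different groups came from the same mouse is not recorded in the labels, and the tests treat all libraries as independent. Genes under 1 CPM rest on a few counts per library, and a difference there may be missed.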
